A study of Mus musculus with 2 samples.

Results

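The IL-1 and IL-33 axis was followed in primary mouse fibro-adipogenic progenitors (FAPs) as the 9 genes Il1a, Il1b, Il1rn, Il33, Il1r1, Il1rl1, Il1rap, Irak2 and Irak3. They were chosen by gene symbol, and all 9 were found among the 44291 genes of the deposited tables. FAPs are mesenchymal cells of skeletal muscle that can form adipocytes or fibroblasts. In the study they were sorted from the hind limb muscles of mice. RNA-seq was performed on 1 PRP library and 1 control library. Both came from wild-type (WT) FAPs placed in an adipogenic medium with IBMX, dexamethasone and insulin. Dexamethasone, a glucocorticoid that is known to dampen inflammatory transcription, was thus part of this medium in both groups. The study's methods follow induction with a maintenance medium that lists insulin but not dexamethasone. The PRP group received platelet-rich plasma and the control group received vehicle. The study's text describes the agent given before transcriptome analysis as exosomes isolated from the PRP of human donors, while the labels say PRP. The groups are called PRP and control here.

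Interleukin-1α and interleukin-1β, encoded by Il1a and Il1b, bind the receptor IL-1R1 (Il1r1), and the antagonist IL-1RA (Il1rn) occupies the same receptor without activating it. Interleukin-33 (Il33), an alarmin kept in the nucleus until a cell is damaged, binds ST2 (Il1rl1). Both receptors need the accessory chain IL-1RAcP (Il1rap) and signal through MyD88 and kinases of the IRAK family to NF-κB. IRAK2 (Irak2) carries that signal on, whereas IRAK3 (Irak3, also known as IRAK-M) is known as its inhibitor. In muscle, FAPs are known as a source of IL-33, which acts on ST2-bearing regulatory T cells.

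The receptor Il1rl1 and the antagonist Il1rn are both transcribed from more than 1 start. The bases before these starts are shown because the deposited values are sums over a whole gene and cannot tell the starts apart. For Il1rl1, the distal start is known from mast cells and T cells and the proximal one from fibroblasts. The gene also gives a membrane receptor and a soluble form that captures IL-33. Il1rn gives a secreted antagonist and forms that stay in the cell, which differ in their first exon. Sequences are from RefSeq on GRCm38.p6, on the plus strand, and each holds the 250 bases before an annotated start. Capitals mark the match of the AP-1 motif TGANTCA.

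Il1rl1 distal start, chr1:40429320-40429569: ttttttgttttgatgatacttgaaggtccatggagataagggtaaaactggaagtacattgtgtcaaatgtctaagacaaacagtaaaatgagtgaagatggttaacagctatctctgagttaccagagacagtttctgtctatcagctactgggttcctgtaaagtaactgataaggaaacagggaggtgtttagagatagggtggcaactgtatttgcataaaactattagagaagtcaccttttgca
Il1rl1 proximal start, chr1:40439379-40439628: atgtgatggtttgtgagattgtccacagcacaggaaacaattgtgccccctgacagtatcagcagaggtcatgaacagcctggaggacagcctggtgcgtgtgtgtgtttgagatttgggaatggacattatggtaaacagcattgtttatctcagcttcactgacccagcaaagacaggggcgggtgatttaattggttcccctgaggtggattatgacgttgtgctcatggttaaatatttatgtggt
Il1rn upstream start, chr2:24336610-24336859: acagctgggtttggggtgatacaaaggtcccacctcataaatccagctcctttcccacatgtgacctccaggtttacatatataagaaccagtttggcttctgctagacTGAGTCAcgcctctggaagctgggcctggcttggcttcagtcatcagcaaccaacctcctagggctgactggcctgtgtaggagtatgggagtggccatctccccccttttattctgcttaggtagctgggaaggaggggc
Il1rn internal start, chr2:24345041-24345290: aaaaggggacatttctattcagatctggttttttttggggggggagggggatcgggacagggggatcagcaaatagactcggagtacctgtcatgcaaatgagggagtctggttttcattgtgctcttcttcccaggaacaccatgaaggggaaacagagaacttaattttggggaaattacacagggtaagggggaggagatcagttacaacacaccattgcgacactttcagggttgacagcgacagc

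The Il1rl1 starts lie 10.1 kb apart, and the upstream Il1rn start lies 8.43 kb before the internal one shown. All 9 genes had entries in this table, 15 in total. TGANTCA was present on either strand in 2 of these 15, the upstream start of Il1rn, 141 bases before the start, and the start of Il1a. It was found in 6.75% of the 32851 promoters of the table. The NF-κB consensus was found in 1 of the 15, a start of Il1r1, against 7.25% of all promoters. The cAMP response element TGACGTCA was found in none of the 15, against 1.55% of all promoters. A match describes letters only, and no match says only that these letters were not in these windows.

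Values are FPKM, that is reads scaled to exon length and to the total of assigned reads. Exon length here merges all annotated transcripts of a gene, whichever are expressed. Levels of different genes, and ratios between genes, can therefore be compared only roughly. The PRP library held 40120843 assigned reads, against 34139741 for the control. Reads of each gene were recovered as whole numbers, and 95% intervals were computed from read pairs, called fragments here. These intervals cover counting error only. They compare the libraries and not the treatments, because neither group has a replicate and no test over samples can be made. Genes averaging 1 FPKM or more (13401 genes) were compared on the log2(FPKM + 1) scale. The median difference of all these genes, PRP minus control, was 0.01.

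To see which parts of the axis FAPs expressed, the levels of the 9 genes were first put in order. In the control library Irak3 was the most abundant, with 10.4 FPKM, followed by Irak2 (6.74), Il1r1 (4.95), Il1rap (4.10), Il1rn (2.74) and Il1rl1 (1.87). Il33, Il1b and Il1a came last, all under 1 FPKM. In the PRP library Il1rl1 stood in second place behind Irak3 and Il1rn stood sixth, below all receptor chains. The intervals of neighbours in this order overlapped only for Il1rap and Il1r1 in the PRP library, and for Il33, Il1b and Il1a in both libraries. The receptor chains and kinases were thus well covered, whereas the agonists were close to the limit of detection.

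**Figure D1:**
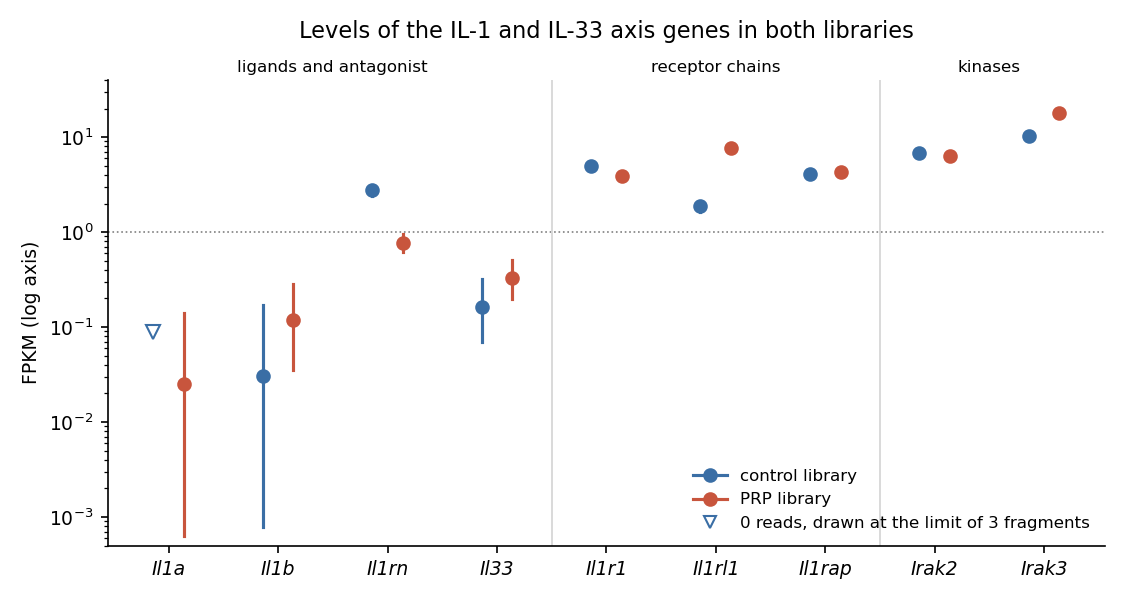
Level in FPKM (log axis) of each of the 9 genes in the control library (blue) and the PRP library (red), grouped by role. Bars are exact Poisson 95% intervals of the fragment count, the dotted line marks 1 FPKM, and the triangle stands for the 0 reads of Il1a in the control library. The agonists Il1a, Il1b and Il33 lie below 1 FPKM, while Il1rl1 and Il1rn are, of the 6 genes averaging 1 FPKM or more, those whose libraries are farthest apart. The PRP point of Il1rn lies below the line.

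Of the 9 genes, 6 averaged 1 FPKM or more. Among these, Il1rl1 was at least 2-fold higher in the PRP library and Il1rn was at least 2-fold lower. Il1rn had 0.770 FPKM with PRP and 2.74 FPKM in the control, so it is among the 6 only through its control value. Irak3 was higher by less than 2-fold, Il1r1 was modestly lower, and the intervals of Il1rap and Irak2 included no change. The shares over all tested genes were 2.0% at least 2-fold higher and 0.828% at least 2-fold lower, so that 1 of 6 genes in each direction rests on a very small number. Intervals lay above 1 for 2 of the 6 genes and below 1 for another 2. Over the 12369 tested genes with whole reads, 26.1% lay above 1 and 26.1% lay below 1, which shows how often counting error alone is exceeded at this depth. The median log2 difference of the 6 genes was -0.02, close to that of all tested genes. With a pseudocount of 5 in place of 1, neither Il1rl1 nor Il1rn reached 2-fold. In bulk RNA, fewer cells that express a gene and less RNA per cell cannot be told apart.

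Transcripts of the IL-1 agonists were close to the limit of detection. Il1a (ENSMUSG00000027399, chromosome 2, 129299610 to 129309972, minus strand) had 2 reads with PRP and 0 in the control. Both numbers are under the limit of 3 fragments that a count of 0 allows, so no ratio is given. That limit corresponds to 0.0890 FPKM of Il1a in the control library. Il1b (ENSMUSG00000027398, chromosome 2, 129364570 to 129371139, minus strand) had 9 reads (0.118 FPKM) with PRP and 2 reads (0.0307 FPKM) in the control. Its ratio of 3.83 had an interval from 0.406 to 184.4, so a difference in Il1b was not detectable at this depth.

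Il33 was low as well. It had 0.328 FPKM from 38 reads with PRP and 0.162 FPKM from 16 reads in the control (ENSMUSG00000024810, chromosome 19, 29925114 to 29960718). The ratio was 2.02 with an interval from 0.845 to 5.34, which includes no change. If the mates of a pair are counted as separate reads, the interval narrows to 1.10 to 3.88 and lies above 1. Mates of a pair are not independent, so that interval is too narrow, and no difference in Il33 is called here. Against Il1rl1, the gene of its receptor, the level of Il33 was 23.2 times lower with PRP and 11.5 times lower in the control.

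The antagonist gene Il1rn was the most abundant gene among the ligands and had its higher level in the control library. Il1rn (ENSMUSG00000026981, chromosome 2, 24336853 to 24351494) had 0.770 FPKM from 171 reads with PRP and 2.74 FPKM from 518 reads in the control. The PRP value was 0.281 times the control value (95% interval 0.217 to 0.360). On the log2(FPKM + 1) scale the difference was -1.08, the 90th lowest of the 13401 tested genes. Per unit of the receptor gene Il1r1, Il1rn stood at 0.197 with PRP and 0.554 in the control. None of the exon length of Il1rn is shared with another annotated gene.

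Among the receptor chains, Il1rl1 differed most between the libraries. Il1rl1 (ENSMUSG00000026069, chromosome 1, 40429570 to 40465415) had 7.61 FPKM from 2105 reads with PRP and 1.87 FPKM from 440 reads in the control. The ratio was 4.07 (95% interval 3.52 to 4.73), and the log2 difference of 1.59 was the 74th highest of the tested genes. The annotation lists 5 transcripts for this gene, and the membrane and soluble forms of ST2 are added up in its value. Which of the starts printed above was in use cannot be read from a gene total.

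Il1r1 went the other way by a smaller margin. It had 3.91 FPKM from 999 reads with PRP and 4.95 FPKM from 1075 reads in the control (ENSMUSG00000026072, chromosome 1, 40225080 to 40317257). Its ratio of 0.791 had an interval from 0.699 to 0.895. The shared accessory chain Il1rap (ENSMUSG00000022514, chromosome 16, 26581704 to 26730117) had 4.25 FPKM with PRP and 4.10 FPKM in the control. With 1936 and 1592 reads, its interval ran from 0.941 to 1.14 and included no change. The level of Il1rl1 relative to Il1rap was 1.79 with PRP against 0.455 in the control. For Il1r1 relative to Il1rap these values were 0.921 and 1.21, although Il1rap had more reads than Il1r1 in each library. Such ratios depend on the exon length assigned to each gene. Of the ligand-binding chains, the ST2 transcript was thus the more abundant with PRP and the IL-1R1 transcript in the control.

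**Figure D2:**
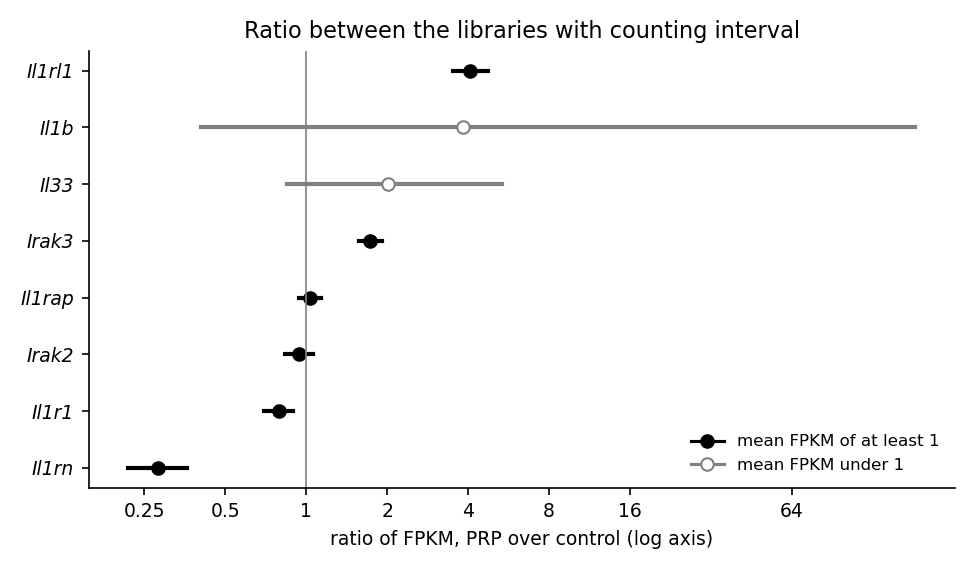
Ratio of FPKM, PRP over control (log axis), for 8 of the 9 genes, with exact Clopper-Pearson 95% intervals of the fragment counts. Filled points average 1 FPKM or more and open points lie below it. Il1a is left out because both libraries are under the limit of 3 fragments. Il1rl1 (4.07) and Irak3 (1.73) lie to the right of 1, Il1r1 (0.791) and Il1rn (0.281) to the left, and the other intervals include 1.

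The inhibitory kinase gene Irak3 was higher in the PRP library. Irak3 (ENSMUSG00000020227, chromosome 10, 120141648 to 120202130, minus strand) had 18.0 FPKM from 2656 reads with PRP and 10.4 FPKM from 1304 reads in the control. The ratio was 1.73 (95% interval 1.58 to 1.91), and the log2 difference of 0.74 lay short of 2-fold, in 500th place from the highest. Irak2 (ENSMUSG00000060477, chromosome 6, 113638467 to 113695026) had 6.32 FPKM with PRP and 6.74 FPKM in the control. Its ratio of 0.938 had an interval from 0.830 to 1.06. Relative to Irak2, the level of Irak3 was 2.85 with PRP and 1.54 in the control. Irak3 shares 5.98% of its exon length with genes on the opposite strand, and Irak2 shares 4.44%. For Il1a, Il1rap and Il1b this share was 11.2%, 4.86% and 1.31%. Whether reads were counted by strand is not given in the sources used here.

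Il1rl1 and Il1r1 belong to a cluster of IL-1 family receptor genes, so the neighbours were compared next. The cluster spans 477.6 kb of chromosome 1 (40074079 to 40551705) and holds 6 protein-coding genes, all on the plus strand. Their order is Il1r2, Il1r1, Il1rl2, Il1rl1, Il18r1 and Il18rap. Il1rl2, the receptor gene for interleukin-36, had 2.34 FPKM with PRP and 1.80 FPKM in the control (ratio 1.30, interval 1.09 to 1.56). The decoy receptor gene Il1r2 had 2 reads in each library. Il18r1, a chain of the interleukin-18 receptor that begins 136 bases after the end of Il1rl1, had 30 reads with PRP and 1 read in the control. For Il18rap, the other chain of that receptor, 71 and 46 reads gave an interval of 0.756 to 2.32, which included no change. Across the cluster, the neighbours on both sides of Il1rl1 also had higher values in the PRP library, while Il1r1 was lower. Il1rl2, at 1.30 times the control, was in 2811th place from the highest of the tested genes. An interval above 1, as it had, was found for 26.1% of all tested genes. Il18r1 lay far below the filter, at 0.155 against 0.00608 FPKM, with an interval of the ratio from 2.37 to 27296.5. Il18r1 was singled out after its values were seen.

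**Figure D3:**
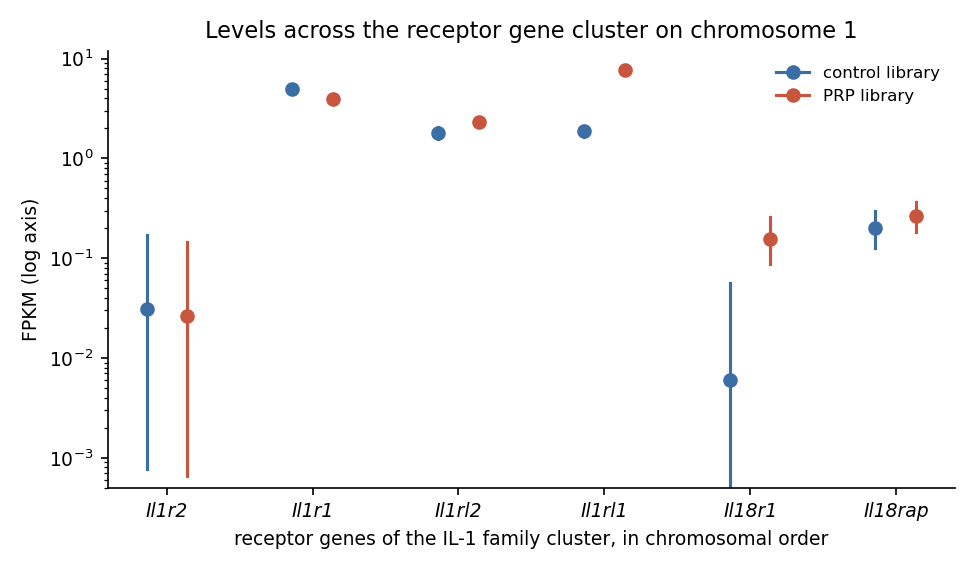
Level in FPKM (log axis) of the 6 receptor genes of the cluster, in chromosomal order, in the control library (blue) and the PRP library (red). Bars are exact Poisson 95% intervals of the fragment count, and the bar of Il18r1 in the control library, which rests on 1 read, runs on below the axis. Il1rl1 goes from 1.87 to 7.61 FPKM, while Il1r1 is lower in the PRP library and Il1rl2 slightly higher.

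Cell types that are known to carry these transcripts were looked for by their markers. FAP markers were abundant, with Lum as the exception, and the other 9 of 10 averaged 1 FPKM or more. Their summed level was 520.8 FPKM with PRP and 818.0 FPKM in the control, and all 9 intervals lay below 1, beside 26.1% of all tested genes. The matrix gene Dpt was the 1 of these 9 at least 2-fold lower, beside 0.828% of all tested genes. It had 18.8 against 50.2 FPKM (0.374 times the control). The most abundant markers, Col1a1 and Thy1, had 118.6 against 218.7 FPKM and 155.6 against 212.1 FPKM. Mast cells, T cells and innate lymphoid cells are known for high ST2. All 7 mast cell markers in the tables were under 1 FPKM in both libraries, with a summed level of 0.181 with PRP and 0.136 in the control. The highest of them, Cma1 and Hdc, had 2 and 2 reads and 16 and 8 reads. Of 10 lymphoid markers, 9 were under 1 FPKM in both libraries, and the T cell genes Cd3d and Cd3g were at 0. The remaining marker, Foxp3, had 2.12 and 2.38 FPKM, with an interval of the ratio from 0.724 to 1.09. Other genes overlap 31.5% of the exon length of Foxp3, 18.6% on the same strand, so reads of its neighbours may be part of its value. The next lymphoid marker, Il7r, had 17 and 4 reads. Macrophages and neutrophils are known for Il1b, Il1rn and Irak3. Macrophage markers summed to 11.4 FPKM with PRP and 11.3 in the control. The leukocyte gene Ptprc had 0.0109 and 0.0192 FPKM, while Cd68 was higher (4.56 against 2.31 FPKM) and Lyz2 lower (4.91 against 7.57 FPKM) in the PRP library. Neutrophil markers summed to 2.73 and 1.40 FPKM, with Ly6g and Csf3r at 0 in both. The difference in this sum came from S100a8 (47 and 2 reads), whereas S100a9, the 1 neutrophil marker that passed the filter, had 0.859 FPKM with PRP against 1.23 (interval of the ratio 0.255 to 1.85).

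Endothelial cells and keratinocytes are known for Il33, Il1a and Il1rn. Endothelial markers summed to 9.94 FPKM with PRP and 6.002 in the control, most of it from the receptor genes Kdr and Tek. Kdr was at least 2-fold higher with PRP, with 4.23 against 1.499 FPKM (ratio 2.82, interval 2.43 to 3.28), and Tek had 4.73 against 3.56 FPKM. Of the endothelial markers 2 passed the filter, so 1 of 2 stands beside 2.0% of all tested genes at least 2-fold higher. Pecam1 was low but also higher, with 47 and 10 reads (ratio 3.999, interval 1.49 to 13.4). Cdh5 had 0.0949 and 0.0976 FPKM and Cldn5 was at 0. Keratinocyte markers summed to 15.1 and 14.0 FPKM, of which Sbsn made up 10.04 and 8.40 FPKM and Krt14 1.93 and 2.52 FPKM. Platelet markers summed to 2.91 and 2.54 FPKM, mostly from Itgb3 (1.35 and 1.14 FPKM) and Gp1ba (0.917 and 1.03 FPKM), with Ppbp and Gp9 at 0 in both. Myogenic markers summed to 18.9 and 15.2 FPKM, of which Acta1 made up 15.1 and 11.1 FPKM and Des 2.91 and 3.39 FPKM, while Pax7 and Myog were at 0. The part of other cell types in the values of the 9 genes was not tested.

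The other ligands and antagonists of the IL-1 family were low. Of 7 genes in this list, Il18 alone averaged 1 FPKM or more, at 1.47 FPKM with PRP and 1.45 FPKM in the control (interval of the ratio 0.582 to 1.79). Il18bp, which encodes the binding protein that neutralizes interleukin-18, had 0.914 and 0.958 FPKM. The 4 genes of the interleukin-36 group had at most 12 reads in either library, and Il1f10 had 0 reads in both. Of 7 other receptor genes, Il1rl2 alone passed the filter on low values, and Il1rapl1 and Il1rapl2 had 0 reads. Sigirr, which encodes an inhibitory receptor of the family, had 2 reads with PRP and 0 in the control.

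Signalling genes downstream of the receptors were all measured. The 19 genes of this list passed the filter, and none was 2-fold higher or lower in the PRP library. Over all tested genes these shares were 2.0% and 0.828%, so 0 of 19 is near them. Their median log2 difference was 0.01, as was that of all tested genes, with a range from -0.49 for Peli2 to 0.58 for Irak1bp1. Intervals lay above 1 for 6 genes, below 1 for 5 and included 1 for 8, which is near the 26.1% of all tested genes in each direction. The adaptor gene Myd88 had 7.09 FPKM with PRP and 5.86 FPKM in the control (ratio 1.21, interval 1.03 to 1.43). It shares 11.3% of its exon length with a gene on the opposite strand. Ikbkg, which encodes the regulatory subunit of the IκB kinase complex, had 27.95 against 25.3 FPKM, and the kinase gene Map3k7 (TAK1) had 14.1 against 16.8 FPKM.

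For processing and release of IL-1 family cytokines, 8 of 13 genes passed the filter and none was 2-fold different. With 8 genes this is near the 2.0% higher and 0.828% lower over all tested genes. The median log2 difference of these 8 was -0.23, and of the 6 with whole reads 2 intervals lay above 1 and 4 below, beside 26.1% of all tested genes each way. The protease gene Capn2, a calpain, had 61.8 FPKM with PRP and 58.5 in the control, and it shares 27.1% of its exon length with a gene on the opposite strand. Ninj1, which encodes a protein of plasma membrane rupture, had 19.5 against 32.6 FPKM (ratio 0.599, interval 0.539 to 0.665). Casp4, the inflammatory caspase that cleaves gasdermin D, stood at 8.06 against 4.35 FPKM, 1.85 times the control (interval 1.604 to 2.15). Its log2 difference of 0.76 was the highest of this list. Casp1, whose product cleaves interleukin-1β, had 1.26 and 1.19 FPKM. The inflammasome sensor gene Nlrp3, below the filter, had 56 reads with PRP and 0 in the control. With the control set to its limit of 3 fragments, the ratio for Nlrp3 was 7.94, and the counting interval of the ratio began at 6.04. Casp4, Casp1 and Nlrp3 were named after their values were seen.

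Genes that IL-1 is known to induce in stromal cells were compared last. This list of 30 genes was written with earlier results of these data known, which already showed higher chemokine genes, so its direction is not independent evidence. Of the 25 genes averaging 1 FPKM or more, 7 were at least 2-fold higher in the PRP library and 0 were at least 2-fold lower, beside 2.0% and 0.828% of all tested genes. Their median log2 difference was 0.65, against 0.01 for all tested genes. Intervals lay above 1 for 23 genes, below 1 for Vcam1, and included 1 for Bcl3, beside 26.1% above and 26.1% below over all tested genes. Tnfaip3, an inhibitor of NF-κB signalling, had 5.88 FPKM with PRP and 1.32 FPKM in the control (ratio 4.45, interval 3.76 to 5.295). Mmp3, a matrix metalloproteinase gene, had 30.6 against 9.89 FPKM (ratio 3.09, interval 2.72 to 3.52). The other 3 with the highest differences were Cxcl1 (log2 difference 2.54), Cxcl2 (2.13) and Ptgs2 (1.62), a pair of chemokine genes and the cyclooxygenase gene of prostaglandin synthesis. Cxcl2 had 4.51 FPKM with PRP and 0.255 FPKM from 18 reads in the control (interval of the ratio 9.12 to 39.3). It thus passed the filter only through the library in which it was higher. Vcam1, an adhesion molecule gene, stood apart with 5.21 against 7.15 FPKM. Many of these genes respond to other inflammatory signals too, so the list does not mark IL-1 or IL-33 as the signal.

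**Figure D4:**
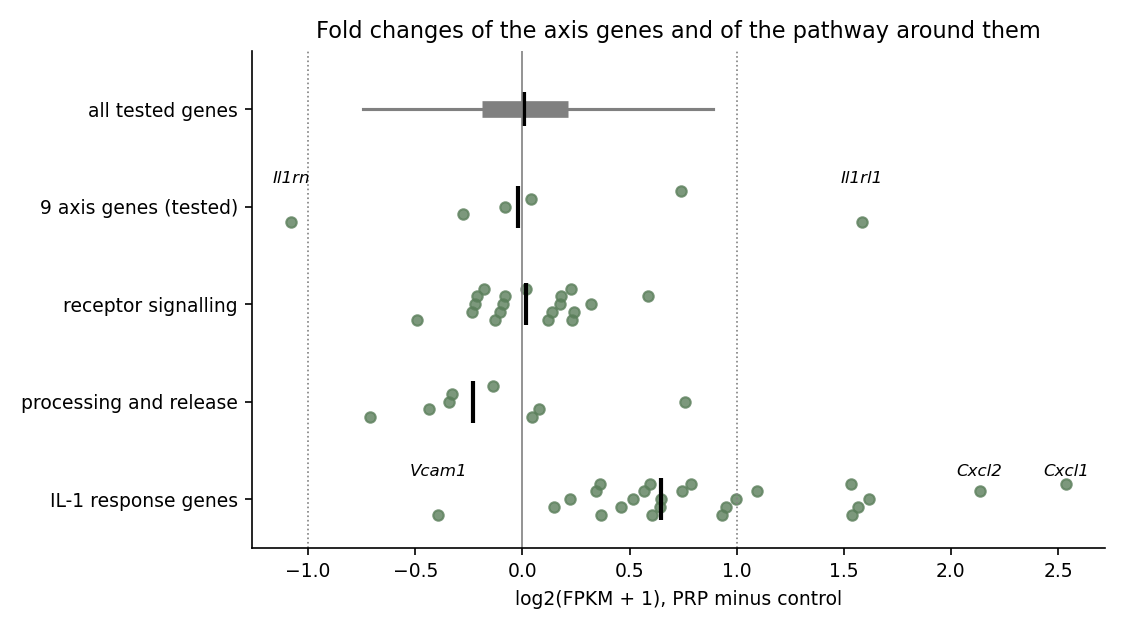
Difference in log2(FPKM + 1), PRP minus control, for the 6 tested genes of the axis, the 19 signalling genes, the 8 processing genes and the 25 response genes, 1 point per gene, with the median as a black tick. The grey box and line above hold the middle 50% and 95% of all 13401 tested genes, and dotted lines mark 2-fold. Il1rl1 and Il1rn lie beyond the 2-fold lines, the signalling genes lie around 0, and all response genes but Vcam1 lie above 0.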

How the data were processed

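RNA-seq was performed by the authors on 1 PRP library and 1 control library of FAPs, built with a stranded mRNA kit per the labels. The submitters' processing notes name fastp 0.23.4, STAR 2.5.3a, featureCounts and the build mm10. The deposited values are FPKM, made by the authors from counts per gene. The formula and the annotation release are not given in the sources used here.

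Exon lengths and coordinates were taken from GENCODE M21 (GRCm38, the same assembly as mm10), which held 41492 of 44291 genes. With these lengths, 93.8% of the genes above 0 gave whole read numbers for PRP and control (tolerance 0.001 reads), for totals of 40120843 and 34139741 reads. Even read numbers made up 79.3% and 80.3% of genes with few reads, as when both mates of a pair are counted, so reads were divided by 2. Ratio intervals are exact Clopper-Pearson 95% intervals of the PRP share of fragments and level intervals are exact Poisson intervals. PCR duplicates are not covered. Genes averaging 1 FPKM or more were compared, with a pseudocount of 1, which understates the fold change of low genes. Reads on a gene were not tested with a count model, as each group has 1 library. The procedure was tested on simulated data.

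The 9 genes and the gene lists were chosen with earlier results of these data known. Lists cover other ligands, other receptors, signalling, processing, IL-1 response genes and markers of FAPs, macrophages, mast cells, lymphoid cells, neutrophils, endothelial cells, keratinocytes, platelets and myogenic cells. All 9 genes were named. Of each other list, up to 5 genes past 2-fold were named, with the 2 most abundant where fewer than 2 passed, and any other gene was named after its values were seen. With 2 libraries no likeness between patterns of genes was computed. Alternatives tried were a pseudocount of 0.1 or 5, a filter at 5 FPKM or none, 2 rescalings, centring, folds of 1.5 and 4, and intervals on reads. Python 3.11.15, NumPy 2.4.6, pandas 2.3.3, SciPy 1.17.1 and matplotlib 3.10.9 were used.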

Additional observations from a re-analysis of the deposited data

How the results depend on the processing

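No paired analysis was possible because neither condition was sequenced more than once, and no replicate could be left out. The direction of Il1rl1, Il1rn, Irak3 and Il1r1 was kept under each pseudocount, rescaling and centring tried. With a pseudocount of 0.1 the log2 difference was 1.97 for Il1rl1 and -1.71 for Il1rn. With a pseudocount of 5 it was 0.88 for Il1rl1, -0.42 for Il1rn and 0.58 for Irak3, so none of the 9 genes passed 2-fold (0), and 3 response genes did. Rescaling to a common sum gave 1.83 for Il1rl1 and -1.48 for Il1rn, and rescaling without mitochondrial genes and the 50 most abundant genes gave 1.86 and -1.58. A pseudocount weighs more on low values by construction. The median of the axis genes was 0.040 with no filter (9 genes) and 0.33 with the filter raised to 5 FPKM (2 genes), where 0 of the 2 remaining genes passed 2-fold. At a 1.5-fold threshold 3 of 6 axis genes, 2 of 29 other pathway genes and 16 of 25 response genes passed. At 4-fold 0 axis genes and 2 response genes, Cxcl1 and Cxcl2, did. Shares over all tested genes are given for the main setting at 2-fold only. The counts under other pseudocounts, filters and thresholds thus have no share beside them and cannot be judged against all genes. Depth limits Il1a, Il1b and Il33, whose intervals on fragments include no change or give no ratio.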
